A study of Mus musculus with 30 samples.

Results

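MHC class I is the surface complex that shows short peptides from inside a cell to CD8 T cells. The genes described here are its light chain B2m and 9 heavy-chain genes of the mouse, namely H2-K1, H2-D1, H2-Q4, H2-Q6, H2-Q7, H2-T22, H2-T23, H2-M3 and Cd1d1. They were chosen by symbol, through the Ensembl identifiers of the deposited count table, and make up 10 of its 55471 genes and 0.641% of its counts. All 10 passed the filter on low counts, which kept 15505 genes.

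The libraries were made from pieces of tumours grown under the skin of female C57BL/6 mice aged 6 to 8 weeks from 1000000 injected MC38 cells, a mouse line derived from a colon tumour. The injected cells carried a loss-of-function mutation in B2m (B2mKO), a loss-of-function mutation in Jak1 (Jak1KO) or neither (WT). Each genotype was treated by vein with 100 µg of antibody to PD-1 (aPD1) or of IgG1 control on days 7, 10 and 13. About 50 mg of each tumour was taken on day 14. There were 5 libraries in each of the 6 groups, 30 in all, and n = 5 per group holds for every comparison below. The mutations were in the injected cells, and the labels name no mutation in the host mice, whose cells enter the same RNA. The labels do not say whether each mutant line was 1 clone. Nor do they say whether each library came from its own mouse, and p-values describe the spread among these libraries only.

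Total counts per library were between 17629795 and 25944701. WT IgG1 replicate 3 and B2mKO aPD1 replicate 2 were the libraries least like their own group, with median correlations of 0.957 and 0.955 to the other members of the group, against at least 0.976 for every other library. Colon epithelium markers (Epcam, Krt20, Cdx2 and 7 others) were scarce, with 3.36 to 32.3 CPM (counts scaled by library size) summed over the 10 genes and up to 6 of the 10 listed at 0 in a library. Markers of leukocytes were present in every library, with none of 10 at 0. In 1 library, WT aPD1 replicate 2, the header of the count table names the alignment of another sample name, and the library was kept.

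A class I heavy chain folds with the B2m light chain and a peptide before it is carried to the cell surface, and without B2m most heavy chains do not reach it. Interferon gamma raises transcription of class I genes by way of the kinases JAK1 and JAK2 and the regulators IRF1 and NLRC5. In mice of the H-2b type, such as C57BL/6, H2-K1 and H2-D1 encode the classical chains Kb and Db, which present peptides to CD8 T cells. The Q, T and M genes encode less variable chains with narrower roles, and Cd1d1 encodes a chain that presents lipids to NKT cells.

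The promoters of these genes carry short elements tied to interferon and NF-kB signals. RefSeq promoter windows (GRCm38.p6, 250 bases before to 50 after a gene's start) were matched for 9 members. Cd1d1 had no entry. An interferon response type motif was searched on both strands as GAANNGAAA. A form 1 base longer, GAAA on both sides of any 2 bases, was added after the shorter one had been searched. All 9 members held 1 of the forms, 6 the shorter and 3 the longer, against 7.52% and 3.44% of all 32851 windows. A kB type motif (GGG, any 2 bases, TT, any base, CC), searched in the same way, was in 6 of the 9 (B2m, H2-K1, H2-D1, H2-Q4, H2-Q6 and H2-Q7), against 4.79% of windows. A match is a run of letters and was not tested as a binding site. The stretches around the interferon type match are shown because the heavy-chain genes differ widely in how low they were in Jak1KO tumours. They run 5′ to 3′ on the strand of the gene, with the match in capitals; those of H2-K1, H2-Q4, H2-Q6 and H2-Q7 begin far enough upstream to include the kB type letters, in lower case, and that of B2m extends downstream to do so.
B2m, chr2:122147540-122147578, plus strand: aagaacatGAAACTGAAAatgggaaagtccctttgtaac
H2-K1, chr17:34000421-34000466, minus strand: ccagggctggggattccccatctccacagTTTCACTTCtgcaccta
H2-Q4, chr17:35379435-35379480, plus strand: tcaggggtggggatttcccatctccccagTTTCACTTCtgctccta
H2-Q6, chr17:35424669-35424714, plus strand: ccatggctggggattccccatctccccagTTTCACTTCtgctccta
H2-Q7, chr17:35439014-35439058, plus strand: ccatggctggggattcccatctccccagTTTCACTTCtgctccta
H2-T22, chr17:36042916-36042941, minus strand: tggcttagTTTCACTTTCgaatcccc
H2-T23, chr17:36032808-36032833, minus strand: cctactgcTTTCTCTTTCataaagac
H2-M3, chr17:37270125-37270149, plus strand: ctctgaggTTTCACTTCtctgtaac
The 9 capital letters of H2-K1, H2-Q4, H2-Q6, H2-Q7 and H2-M3 were the same. Whether these letters bear on how low a gene was in Jak1KO tumours was not tested.

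Read assignment differed between members. B2m lies alone on chromosome 2 (GRCm38, 122147686 to 122153083, plus strand) and shared no 100-base stretch with another gene's transcripts. The same held for H2-M3 (chromosome 17, 37270220 to 37274484, plus strand). H2-K1 (chromosome 17, 33996017 to 34000347, minus strand) shared 0.957% of its 100-base stretches, and H2-D1 (chromosome 17, 35262730 to 35267499, plus strand) shared 3.59%. Sharing was higher for H2-Q6 (chromosome 17, 35424850 to 35430055, plus strand) at 10.8%, mainly with H2-Q7. H2-Q7 (chromosome 17, 35439155 to 35443773, plus strand) shared 12.0%, H2-T22 (chromosome 17, 36037128 to 36042747, minus strand) shared 8.86%, mainly with H2-T10, and Cd1d1 (chromosome 3, 86995834 to 86999441, minus strand) shared 10.5%, with Cd1d2. H2-Q4 (chromosome 17, 35379617 to 35385290, plus strand) shared 2.16% and H2-T23 (chromosome 17, 36029773 to 36032855, minus strand) 3.15%. Read length is not given in the sources used here, and shorter stretches were shared more often. At 50 bases the shares were 34.5% for H2-T22, 32% for H2-Q6, 26.4% for H2-Q7, 21.8% for H2-Q4, 19.1% for Cd1d1, 13.6% for H2-T23, 12.8% for H2-D1 and 9.63% for H2-K1, against 0.576% for H2-M3 and none for B2m. Reads that fit several places were not counted, so values of H2-Q6, H2-Q7, H2-T22 and Cd1d1 are uncertain, and with short reads those of H2-Q4, H2-T23, H2-D1 and H2-K1 are in part. Counting ignored strand, and the antisense genes Gm11131 and A930015D03Rik cover 19.11% of the exon bases of H2-Q4 and 29.38% of those of H2-T22, so reads from either partner could not be separated.

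Levels across the 10 genes spanned more than 3 orders of magnitude. In reads per kilobase of exon scaled by library size (RPKM), B2m averaged 5317 ± 847 in WT aPD1 tumours and 3593 ± 1059 in WT IgG1 tumours (SD). Next came H2-D1 and H2-K1, at 951 ± 161 and 913 ± 171 RPKM in WT aPD1 tumours and 676 ± 250 and 564 ± 175 RPKM in WT IgG1 tumours. The library ranges of these classical chains overlapped each other, and both stood clear of the next gene in each WT group. H2-Q6 averaged 283 and 181 RPKM in WT aPD1 and WT IgG1 tumours, H2-Q4 180 and 129, H2-Q7 128 and 80.4, H2-T22 104 and 83.7, H2-T23 65.1 and 26.7, and H2-M3 38.5 and 33.96. In the WT IgG1 group each of these 6 genes overlapped its neighbours in this order of levels. Cd1d1 was far below them, at 1.76 ± 0.43 RPKM in WT aPD1 tumours and 1.35 ± 0.38 RPKM in WT IgG1 tumours.

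**Figure D1:**
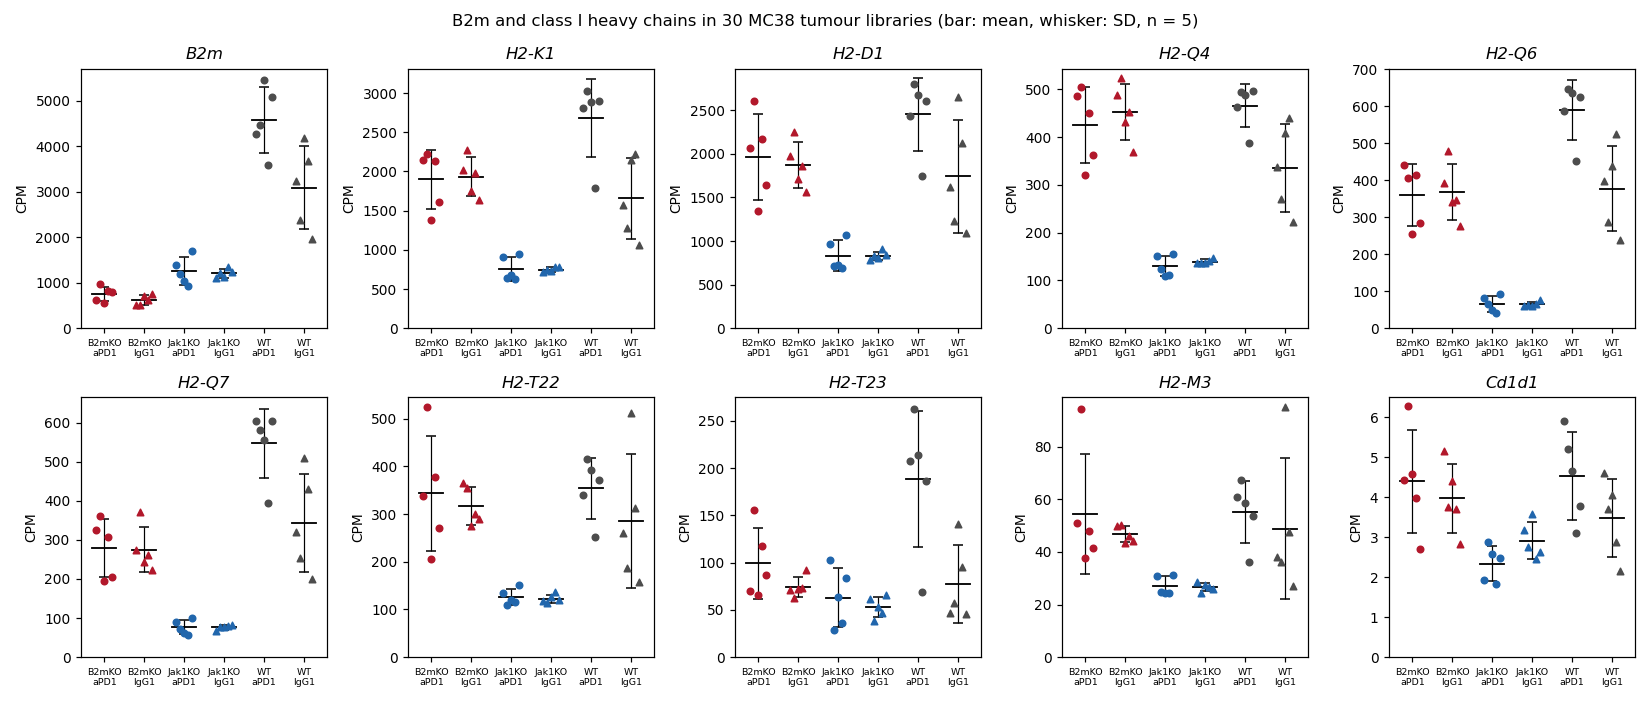
Level of each of the 10 genes in every library, in CPM on a linear axis, by genotype and antibody. Each point is 1 library, the bars mark group means and the whiskers SD. B2m is lowest in the B2mKO groups, and the heavy chains H2-K1, H2-D1, H2-Q4, H2-Q6, H2-Q7 and H2-T22 are lowest in the Jak1KO groups.

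The comparison of B2mKO with WT tumours asks what loss of the light-chain gene left of each class I transcript, and B2m itself checks the labels. Under aPD1, B2m stood at 621, 963, 561, 809 and 790 CPM in the 5 B2mKO libraries, against 4266, 4475, 5459, 3584 and 5079 CPM in the 5 WT libraries. Under IgG1 it stood at 501, 510, 707, 621 and 747 CPM in B2mKO tumours, against 3240, 2383, 4176, 3684 and 1965 CPM in WT tumours. Every B2mKO library was below every WT library, and B2m was low but present in all 10 of them. B2m fell by 2.61 ± 0.20 on the log2 scale under aPD1 (adjusted p = 1.55e-10) and by 2.32 ± 0.20 under IgG1 (adjusted p = 1.22e-09, quasi-likelihood test of edgeR, Benjamini-Hochberg adjusted over all genes, SE after ±). What remained was 16.4% of the WT mean under aPD1 and 20.0% under IgG1. In bulk tissue, fewer cells that make a transcript and less of it per cell cannot be told apart, here and in every comparison that follows. The files do not separate host reads from those of mutant cells.

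No heavy-chain gene was called lower together with the light chain under IgG1. H2-K1 stood at 2020, 2271, 1748, 1978 and 1635 CPM in B2mKO tumours, against 1572, 1284, 2143, 2220 and 1061 CPM in WT tumours. The B2mKO values lay inside or above the WT range, with a log2 fold change of 0.22 ± 0.18 (adjusted p = 0.398). H2-D1 gave 0.11 ± 0.20 (adjusted p = 0.737). H2-Q4, a class Ib gene of the Q region, was higher, at 488, 523, 432, 453 and 370 CPM in B2mKO tumours, against 337, 270, 410, 440 and 222 CPM in WT tumours. Its ranges overlapped, and it rose by 0.43 ± 0.15 (adjusted p = 0.0394). Leaving out WT IgG1 replicate 1, 2 or 5, or B2mKO IgG1 replicate 1, 2, 3 or 4, ended that call, with an adjusted p of up to 0.130. The other 6 heavy chains ranged from -0.32 to 0.18 and did not pass. Of the 10 genes, 1 was higher and 1 lower in B2mKO tumours under IgG1, against 9.42% (higher) and 11.7% (lower) of all genes tested. The lower gene was B2m, the mutated gene. The median log2 fold change of the 10 was 0.03, beside 0.00 for all genes. Only B2m had groups that did not overlap, where 6.35% of all genes were lower without overlap. Of the 10 leukocyte markers 0 passed here in edgeR's test, none had an unadjusted p under 0.05, and they summed to 825 to 1342 CPM in B2mKO IgG1 tumours and 559 to 1234 CPM in WT IgG1 tumours. Among the lists of markers of other cell types, more than 1 gene was called in a pair of them. Fibroblast markers were higher, 4 of 6, with sums of 13381 to 30654 CPM in B2mKO and 7159 to 13218 CPM in WT libraries. NK cell markers were higher, 3 of 4, with sums of 5.62 to 14.4 CPM in B2mKO and 4.76 to 5.99 CPM in WT libraries. No marker of either list was at 0, and their part in the heavy-chain values was not tested.

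Under aPD1, 3 of the 10 genes were lower in B2mKO than in WT tumours, against 10.5% of all genes, and none was higher, against 9.87%. B2m, the mutated gene, is among the 3 and serves as a check of the labels. The only heavy-chain genes called lower were H2-Q6 and H2-Q7, which encode Qa-2, a chain with a membrane anchor of lipid. H2-Q6 stood at 440, 406, 255, 414 and 286 CPM in B2mKO tumours, against 588, 647, 636, 451 and 625.4 CPM in WT tumours. H2-Q7 stood at 326, 361, 194, 307 and 205 CPM in B2mKO tumours, against 604, 580, 555, 393 and 603 CPM in WT tumours. Neither gene overlapped between groups. H2-Q6 fell by 0.71 ± 0.21 (adjusted p = 0.0154) and H2-Q7 fell by 0.97 ± 0.21 (adjusted p = 0.00140). H2-K1 at -0.50 ± 0.18 (adjusted p = 0.0504) and H2-T23 at -0.92 ± 0.34 (adjusted p = 0.0546) did not pass, and the other 5 heavy chains lay between -0.32 and -0.02. The count was 5 without WT aPD1 replicate 4 or without B2mKO aPD1 replicate 2, which added H2-K1 and H2-T23. Over 19 alternatives H2-K1 passed in 7 and H2-T23 in 4. Those of H2-K1 included scaling by DESeq2 size factors and by total counts. The log2 fold change stayed between -0.61 and -0.40 for H2-K1 and between -1.13 and -0.77 for H2-T23. Groups without overlap numbered 3 of 10, the mutated gene B2m included, against 6.66% of all genes lower without overlap. Of the 10 leukocyte markers 2 were lower, against 10.5% of all genes. The 10 summed to 1053 to 1384 CPM in B2mKO aPD1 tumours and 969 to 2373 CPM in WT aPD1 tumours. These ranges overlapped, and no marker was at 0. Fibroblast markers were higher, 4 of 6, with sums of 9669 to 22405 CPM in B2mKO and 4802 to 9553 CPM in WT libraries. Endothelial markers were higher, 4 of 5, with sums of 92.0 to 196 CPM in B2mKO and 80.5 to 131 CPM in WT libraries. Of 4 dendritic cell markers 1 was higher and 2 lower, with sums of 15.6 to 18.4 CPM in B2mKO and 11.9 to 32.7 CPM in WT libraries. None of these markers was at 0 in these libraries, other lists had at most 1 call, and the part of any list in the result was not tested.

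The B2m transcript was also set against the classical chains within each library, which does not depend on how libraries are scaled. The ratio of B2m RPKM to the sum of H2-K1 and H2-D1 RPKM was 0.471, 0.633, 0.660, 0.600 and 0.775 in the B2mKO aPD1 libraries, against 2.61, 2.46, 3.15, 3.23 and 2.96 in the WT aPD1 libraries. Under IgG1 it was 0.401, 0.360, 0.653, 0.517 and 0.748 in B2mKO tumours, against 3.237, 3.03, 2.77, 2.71 and 2.92 in WT tumours. The groups did not overlap. The mean log2 ratio differed by -2.21 under aPD1 and by -2.51 under IgG1, each with p = 0.00794 in an exact two-sided permutation test, the smallest p that 5 against 5 libraries can give, and 0.0185 adjusted over the 7 ratio comparisons made. In Jak1KO tumours the ratio averaged 2.49 ± 0.24 under aPD1, against 2.88 ± 0.34 in WT tumours, a log2 difference of -0.21 that did not pass (exact permutation p = 0.0714, adjusted 0.125). Under IgG1 it averaged 2.42 ± 0.08 in Jak1KO tumours, against 2.93 ± 0.21 in WT tumours, without overlap, with a log2 difference of -0.27 (exact permutation p = 0.00794, adjusted 0.0185).

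**Figure D2:**
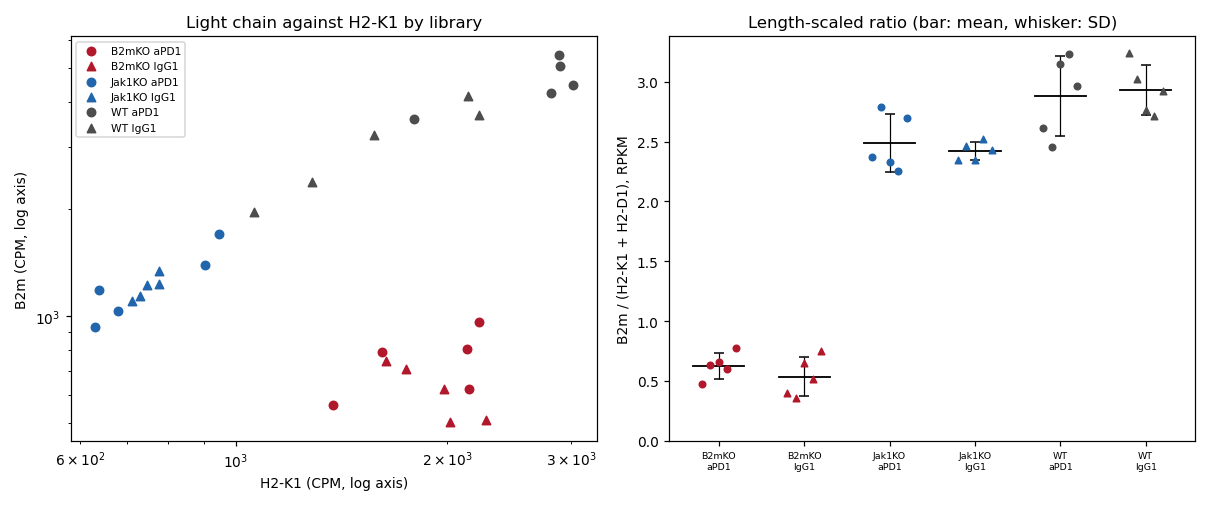
Left, B2m against H2-K1 in each of 30 libraries, in CPM on log axes; right, the ratio of B2m to the sum of H2-K1 and H2-D1 (RPKM) per library, with group means as bars. B2mKO libraries sit at ratios of 0.360 to 0.775, and every Jak1KO and WT library is above 2.

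The comparison of Jak1KO with WT tumours asks what loss of the interferon kinase JAK1 left of the same genes. Jak1 itself averaged 72.4 ± 7.0 CPM in Jak1KO tumours and 239 ± 6 CPM in WT tumours under aPD1, and 71.5 ± 5.0 CPM in Jak1KO tumours and 232 ± 29 CPM in WT tumours under IgG1. It fell by 1.72 and 1.70 on the log2 scale (adjusted p = 1.29e-12 and 1.66e-12). Under IgG1, 8 of the 10 class I genes were lower in Jak1KO tumours, against 11% of all genes, and 7 had groups that did not overlap, against 8.09%. Under aPD1 all 10 were lower, against 12.4%, and 9 had groups that did not overlap, against 10.3%. No member was higher, against 7.27% of all genes under IgG1 and 8.4% under aPD1. The median log2 fold change of the 10 was -1.18 under IgG1 and -1.70 under aPD1, beside 0.00 and 0.02 for all genes. Both knockout genotypes are set against the same WT libraries.

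B2m stood at 1393, 1183, 1031, 933 and 1708 CPM in Jak1KO aPD1 tumours and at 1099, 1219, 1136, 1338 and 1230 CPM in Jak1KO IgG1 tumours, below every WT library listed above. It fell by 1.87 ± 0.19 under aPD1 (adjusted p = 3.71e-08) and by 1.36 ± 0.19 under IgG1 (adjusted p = 7.42e-06). Under aPD1, H2-K1 stood at 904, 640, 680, 631 and 947 CPM in Jak1KO tumours, against 2811, 3022, 2884, 1794 and 2896 CPM in WT tumours. Every Jak1KO library was below every WT library. Under IgG1, H2-K1 stood at 711, 747, 731, 778 and 777 CPM in Jak1KO tumours, with a coefficient of variation of 3.89%, below all 5 WT libraries given above, whose coefficient of variation was 31.0%. H2-K1 fell by 1.82 ± 0.19 under aPD1 (adjusted p = 3.02e-08) and by 1.15 ± 0.18 under IgG1 (adjusted p = 4.28e-05). H2-D1 stood at 971, 710, 729, 686 and 1067 CPM in Jak1KO aPD1 tumours, against 2430, 2806, 2673, 1748 and 2601 CPM in WT aPD1 tumours. It again showed no overlap, and fell by 1.56 ± 0.20 under aPD1 (adjusted p = 1.68e-06) and by 1.07 ± 0.20 under IgG1 (adjusted p = 0.000329).

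The Qa-2 genes had the largest differences of the 10. Under aPD1, H2-Q6 stood at 81.8, 66.3, 48.0, 40.4 and 93.7 CPM in Jak1KO tumours, against the WT values of 451 to 647 CPM given above. Under IgG1 it stood at 59.9, 63.8, 61.2, 66.7 and 75.2 CPM in Jak1KO tumours, against 399, 287, 437, 525 and 238 CPM in WT tumours. The gap between groups was wider than the range within either Jak1KO group. H2-Q6 fell by 3.16 ± 0.23 under aPD1 (adjusted p = 4.72e-11) and by 2.53 ± 0.22 under IgG1 (adjusted p = 1.94e-09), which left 11.2% and 17.3% of the WT mean. H2-Q7 stood at 89.7, 72.6, 62.1, 57.6 and 100.8 CPM in Jak1KO aPD1 tumours and at 65.8, 77.1, 77.4, 79.4 and 82.7 CPM in Jak1KO IgG1 tumours. The WT IgG1 libraries had 320, 254, 509, 431 and 201 CPM of H2-Q7. H2-Q7 was below the WT range under both antibodies, and fell by 2.84 ± 0.22 under aPD1 (adjusted p = 2.48e-10) and by 2.16 ± 0.22 under IgG1 (adjusted p = 3.03e-08). H2-Q4 ranged from 109 to 155 CPM in Jak1KO aPD1 tumours, against 388 to 497 CPM in WT aPD1 tumours, and from 136 to 147 CPM in Jak1KO IgG1 tumours, against 222 to 440 CPM in WT IgG1 tumours. It fell by 1.84 ± 0.15 (adjusted p = 8.26e-10) and by 1.27 ± 0.15 (adjusted p = 5.72e-07).

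The T and M region genes and Cd1d1 differed less. H2-T22, whose product is bound by a subset of gamma delta T cells, ranged from 110 to 151 CPM in Jak1KO aPD1 tumours, against 251.9 to 416 CPM in WT aPD1 tumours, and from 113 to 136 CPM in Jak1KO IgG1 tumours, against 157 to 512 CPM in WT IgG1 tumours. It fell by 1.49 ± 0.23 under aPD1 (adjusted p = 2.48e-05) and by 1.22 ± 0.23 under IgG1 (adjusted p = 0.000346). H2-T23 encodes Qa-1b, the ligand of the CD94/NKG2 receptors of NK cells and CD8 T cells. It was the exception to clear separation: it stood at 102, 28.2, 63.9, 36.1 and 83.5 CPM in Jak1KO aPD1 tumours, against 208, 263, 214, 69.3 and 187 CPM in WT aPD1 tumours. WT aPD1 replicate 4 lay among the Jak1KO values, and H2-T23 fell by 1.58 ± 0.35 (adjusted p = 0.00134). Under IgG1 it gave -0.54 ± 0.34 (adjusted p = 0.275).

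H2-M3 encodes a chain that presents peptides with a formyl group, as bacteria and mitochondria make them. It stood at 30.8, 24.6, 24.6, 24.5 and 31.3 CPM in Jak1KO aPD1 tumours, against 60.7, 67.4, 58.6, 36.1 and 53.7 CPM in WT aPD1 tumours, with no overlap. It fell by 1.03 ± 0.24 under aPD1 (adjusted p = 0.00282) and by 0.87 ± 0.24 under IgG1 (adjusted p = 0.0124), where the groups overlapped; without WT IgG1 replicate 3, which held 95.1 CPM, the IgG1 value was -0.48 and no longer passed (adjusted p = 0.105). Cd1d1 ranged from 1.84 to 2.87 CPM in Jak1KO aPD1 tumours, against 3.11 to 5.90 CPM in WT aPD1 tumours, and fell by 0.95 ± 0.22 (adjusted p = 0.00236). Under IgG1 Cd1d1 gave -0.26 ± 0.22 (adjusted p = 0.440).

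Markers of other cells were counted in these comparisons. Of all genes, 12.4% were lower and 8.4% higher under aPD1, and 11% and 7.27% under IgG1. Of the 10 leukocyte markers, 6 were lower in Jak1KO than in WT tumours under aPD1, where they summed to 752 to 1268 CPM in Jak1KO and 969 to 2373 CPM in WT libraries. None passed in either direction under IgG1, where the sums were 755 to 979 CPM in Jak1KO and 559 to 1234 CPM in WT libraries. None of the 10 was at 0 in any library. Under IgG1 T cell markers were higher, 3 of 8, with sums of 9.34 to 31.5 CPM in Jak1KO and 4.94 to 11.7 CPM in WT libraries. Fibroblast markers were lower there, 2 of 6, with sums of 7304 to 9675 CPM in Jak1KO and 7159 to 13218 CPM in WT libraries. Under aPD1 2 fibroblast markers were higher and 1 lower, with sums of 8722 to 9736 CPM in Jak1KO and 4802 to 9553 CPM in WT libraries. Of 8 macrophage markers 1 was higher and 2 lower under aPD1, with sums of 1637 to 2426 CPM in Jak1KO and 1732 to 3810.4 CPM in WT libraries. Of 4 dendritic cell markers 1 was higher and 2 lower under aPD1, with sums of 13.1 to 20.6 CPM in Jak1KO and 11.9 to 32.7 CPM in WT libraries. None of these was at 0 in these libraries, other lists had at most 1 call, and the part of any list in the class I values was not tested.

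**Figure D3:**
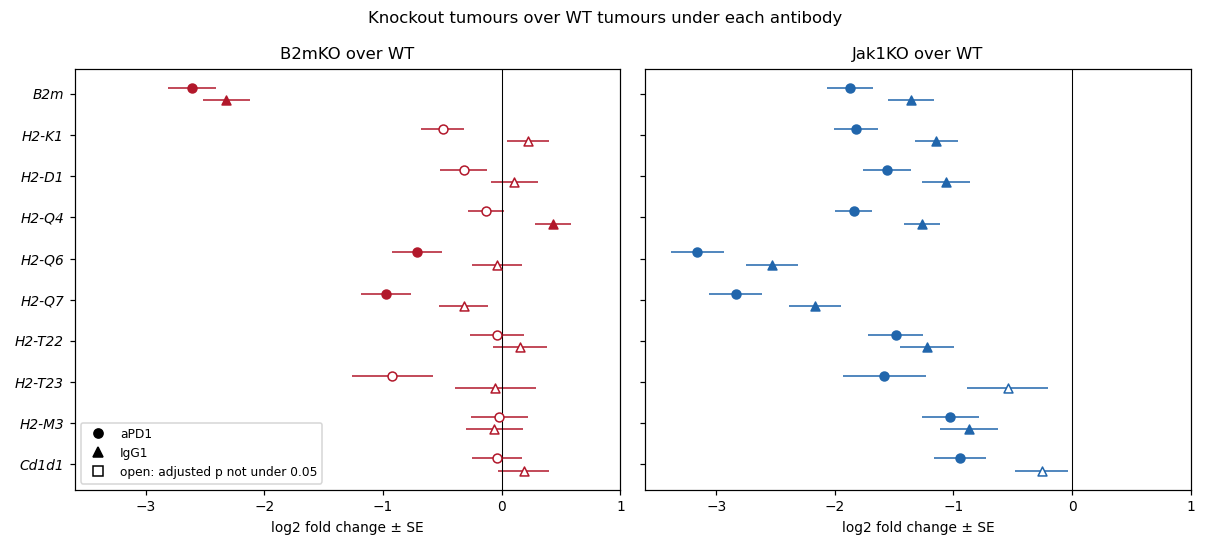
Log2 fold change ± SE of each of the 10 genes in B2mKO over WT and in Jak1KO over WT tumours, under aPD1 and under IgG1; a value below 0 is lower in the knockout. In Jak1KO tumours the values run from -3.16 for H2-Q6 to -0.26 for Cd1d1, and in B2mKO tumours B2m lies at -2.61 and -2.32 while the heavy chains lie between -0.97 and 0.43.

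The heavy chains did not fall in 1 proportion. As a share of H2-K1 RPKM in the same library, H2-Q6 was 12.1% ± 2.5 in Jak1KO aPD1, 26.6% ± 1.6 in B2mKO aPD1 and 31.3% ± 2.4 in WT aPD1 tumours. Under IgG1 the shares were 12.3% ± 0.8 in Jak1KO, 26.6% ± 2.4 in B2mKO and 32.2% ± 2.6 in WT tumours. No Jak1KO library exceeded 14.6% and no WT library was under 28.8%. The H2-Q7 share was 6.91% in Jak1KO, 10.0% in B2mKO and 14.1% in WT tumours under aPD1, and 7.03%, 9.73% and 14.1% in the same order under IgG1. H2-M3 went the other way, at 7.38% ± 0.52 of H2-K1 in Jak1KO and 4.20% ± 0.30 in WT tumours under aPD1. Under IgG1 it was at 7.31% ± 0.65 in Jak1KO and 5.88% ± 1.85 in WT tumours, where the ranges overlapped. H2-D1, H2-T23 and Cd1d1 also had a higher mean share in Jak1KO than in WT tumours under both antibodies. H2-Q4 was at 25.4% in B2mKO and 20.1% in WT tumours under aPD1, and at 26.6% in B2mKO and 23.2% in WT tumours under IgG1. These shares are given as a description, with no test. In RPKM, H2-Q6 stood at 31.3 in Jak1KO IgG1 tumours, below H2-Q4 at 53.7 and H2-T22 at 35.9 there, and at 181 in WT IgG1 tumours, where it was the fourth most abundant of the 10 genes.

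**Figure D4:**
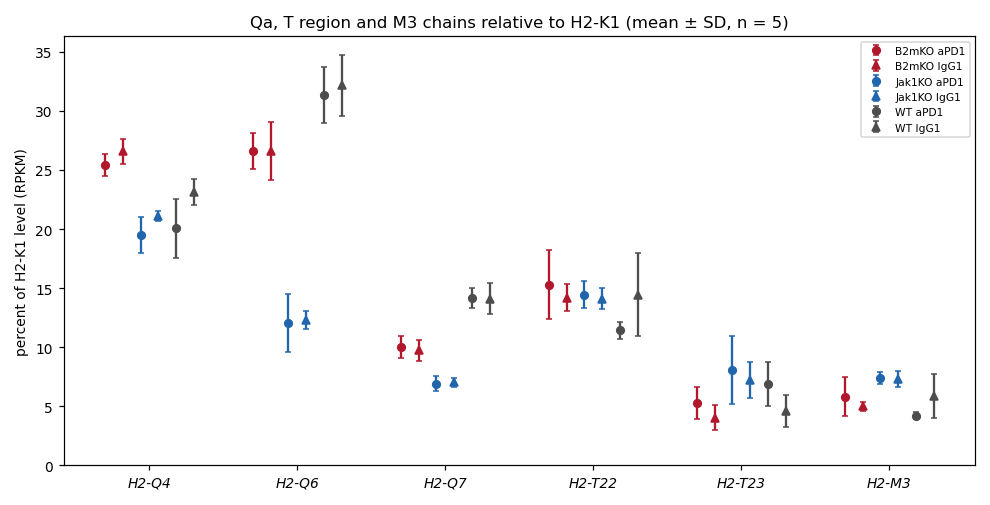
RPKM of H2-Q4, H2-Q6, H2-Q7, H2-T22, H2-T23 and H2-M3 as a percentage of H2-K1 RPKM in the same library, by group. Points are group means and bars are SD. Single libraries are not drawn, and for H2-Q6 they ranged from 9.02% to 14.6% in Jak1KO and from 28.8% to 35.7% in WT tumours.

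Set directly against each other, the knockout genotypes differed in opposite directions for the light chain and the heavy chains. Under aPD1, 8 of the 10 genes were higher and 1 (B2m) was lower in B2mKO than in Jak1KO tumours, against 15.1% and 13.7% of all genes. Under IgG1, 7 were higher and 1 (B2m) was lower, against 14.6% and 14.1%. Groups did not overlap for 7 of the higher genes under aPD1, against 10.6% of all genes higher and 10.6% lower without overlap, and for 7 higher genes and B2m under IgG1, against 14% and 15%. H2-K1 was higher in B2mKO tumours by 1.32 ± 0.18 under aPD1 (adjusted p = 3.23e-06) and by 1.37 ± 0.18 under IgG1 (adjusted p = 1.72e-06). H2-Q6 was higher by 2.45 ± 0.22 under aPD1 (adjusted p = 2.36e-09) and by 2.49 ± 0.22 under IgG1 (adjusted p = 1.15e-09). B2m fell by 0.74 ± 0.19 relative to Jak1KO tumours under aPD1 (adjusted p = 0.00384), where 1 B2mKO library overlapped the Jak1KO range, and by 0.96 ± 0.19 under IgG1 (adjusted p = 0.000282), without overlap. H2-T23 did not pass under either antibody, at 0.66 ± 0.34 under aPD1 and 0.49 ± 0.34 under IgG1. Leukocyte markers gave 0 of 10 calls in both of these comparisons, with 4 and 1 of 10 at an unadjusted p under 0.05 under aPD1 and IgG1 in edgeR's test. Of all genes, 15.1% were higher and 13.7% lower even after adjustment under aPD1, and 14.6% and 14.1% under IgG1. The unadjusted marker counts are therefore not read as a result. Fibroblast markers were higher, 4 of 6 under aPD1, with sums of 9669 to 22405 CPM in B2mKO and 8722 to 9736 CPM in Jak1KO libraries. Under IgG1 5 of 6 were higher, with sums of 13381 to 30654 CPM in B2mKO and 7304 to 9675 CPM in Jak1KO libraries. Under aPD1 NK cell markers were also higher, 4 of 4, with sums of 3.90 to 18.1 CPM in B2mKO and 4.21 to 6.93 CPM in Jak1KO libraries. Endothelial markers were higher there, 4 of 5, with sums of 92.0 to 196 CPM in B2mKO and 66.4 to 101 CPM in Jak1KO libraries. No fibroblast, NK cell or endothelial marker was at 0. Of 6 colon epithelium markers tested under aPD1 3 were higher, and of 5 skeletal muscle markers 2 were lower. The part of these lists in the class I values was not tested.

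PD-1 blockade was compared with IgG1 within each genotype. In WT tumours all 10 class I genes had a log2 fold change above 0, with a median of 0.53 beside -0.03 for all genes, and 2 passed the test, H2-K1 and H2-T23, against 3.75% of all genes called higher and 0.632% called lower. H2-K1 stood at 2811, 3022, 2884, 1794 and 2896 CPM in WT aPD1 tumours, against 1572, 1284, 2143, 2220 and 1061 CPM in WT IgG1 tumours. The ranges met only through WT aPD1 replicate 4. H2-K1 rose by 0.70 ± 0.18 (adjusted p = 0.0246). H2-T23 stood at 208, 263, 214, 69.3 and 187 CPM in WT aPD1 tumours, against 46.5, 57.1, 141, 95.2 and 45.9 CPM in WT IgG1 tumours, and replicate 4 was again the aPD1 library inside the IgG1 range. It rose by 1.29 ± 0.34 (adjusted p = 0.0282). B2m at 0.57 ± 0.19 (adjusted p = 0.0908), H2-Q7 at 0.67 ± 0.21 (adjusted p = 0.0658), H2-Q6 at 0.64 ± 0.21 (adjusted p = 0.0796) and H2-Q4 at 0.47 ± 0.15 (adjusted p = 0.0718) did not pass. No member had groups without overlap, against 1.19% of all genes higher without overlap.

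These WT calls lay close to the threshold. Both calls ended, for a count of 0, without any 1 of WT aPD1 replicates 1, 2, 3 and 5 and of WT IgG1 replicates 1, 2 and 5. The count was 6 without WT aPD1 replicate 4 or WT IgG1 replicate 3 and 5 without WT IgG1 replicate 4. All genes called moved too, from 679 in the fit reported to 1110, 682 and 924 without these libraries in turn. They numbered 229 to 534 where leaving out 1 library gave a count of 0. A fit of the WT libraries alone also gave 0, with 63 of all 14358 genes called. The log2 fold change stayed between 0.57 and 0.82 for H2-K1 and between 1.14 and 1.62 for H2-T23 over 19 alternatives, of which 11 and 10 passed the threshold. Leukocyte markers rose in the same comparison, 7 of 10, against 3.75% of all genes called higher. They summed to 969 to 2373 CPM in WT aPD1 tumours and 559 to 1234 CPM in WT IgG1 tumours, with none at 0. Of 4 dendritic cell markers 2 rose, with sums of 11.9 to 32.7 CPM in WT aPD1 and 11.4 to 15.1 CPM in WT IgG1 tumours, and other lists had at most 1 call. Ptprc, which encodes the leukocyte surface protein CD45, averaged 217 ± 71 CPM in WT aPD1 tumours and 108 ± 45 CPM in WT IgG1 tumours (adjusted p = 0.0272). WT aPD1 replicate 4 had the lowest leukocyte sum of its group. Their part in the class I values was not tested.

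In the knockout tumours no class I gene passed the test of aPD1 against IgG1 with edgeR, DESeq2 or limma voom, and none of the 10 had an unadjusted p under 0.05 in edgeR's test. No gene at all was called there (0% of genes tested), with 516 genes in B2mKO and 174 in Jak1KO tumours at an unadjusted p under 0.05. The log2 fold changes ran from -0.09 to 0.42 in B2mKO tumours and from -0.32 to 0.25 in Jak1KO tumours. H2-K1 gave -0.02 ± 0.18 in B2mKO and 0.02 ± 0.18 in Jak1KO tumours. The difference between these effects and the WT effect was tested as an interaction. Of the 10 genes, 0 passed for B2mKO against WT, where 0.103% of all genes were called, and 0 for Jak1KO against WT, where 0% were. H2-K1 gave a difference of -0.72 ± 0.26 for B2mKO (adjusted p = 0.233) and -0.67 ± 0.26 for Jak1KO (adjusted p = 0.429). An unadjusted p under 0.05 was reached by 4 of the 10 genes for B2mKO, beside 2560 of all 15505 genes, and by 6 of the 10 for Jak1KO, beside 1286 of all genes. DESeq2 and limma voom also called none of the 10. A different response of class I genes to aPD1 between genotypes was not shown, and these comparisons share the WT libraries.

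Genes that act with class I were counted from lists chosen with earlier results of these data known. Of all genes tested, 8.4% were higher and 12.4% lower in Jak1KO than in WT tumours under aPD1, and 7.27% and 11% under IgG1. In B2mKO against WT tumours the shares were 9.87% and 10.5% under aPD1, and 9.42% and 11.7% under IgG1. For aPD1 over IgG1 in WT tumours they were 3.75% and 0.632%. List counts here and in the next paragraphs stand beside these shares, and small counts are not read as a result about a list. Calls of single genes outside the 10 class I genes were not repeated under other settings. For aPD1 over IgG1 in WT tumours, a fit of the WT libraries alone called 63 of 14358 genes, beside 679 of 15505 here. Under IgG1, 7 of 13 genes of peptide loading and the immunoproteasome were lower in Jak1KO than in WT tumours and none was higher, with a median log2 fold change of -0.45. These included Tap1, a subunit of the peptide transporter, at -0.94 ± 0.16, and the immunoproteasome subunits Psmb9 at -1.51 ± 0.28 and Psmb8 at -0.88 ± 0.17. Under aPD1, 10 of 13 were lower and none higher, with a median of -0.66, Tap1 at -1.89 ± 0.16 and Psmb9 at -2.24 ± 0.28. In B2mKO against WT tumours the same list had 0 higher and 2 lower under aPD1, Tap1 at -0.89 ± 0.15 and Tap2 at -0.30 ± 0.10. Under IgG1 it had 3 higher and 0 lower, Tapbp (tapasin) at 0.66 ± 0.13, Tap2 at 0.45 ± 0.11 and the peptide-trimming enzyme Erap1 at 0.44 ± 0.08. For aPD1 over IgG1 in WT tumours 4 of 13 were higher, Tap1 at 0.96 ± 0.15, Tap2 at 0.55 ± 0.11, Tapbpl at 0.62 ± 0.14 and Tapbp at 0.44 ± 0.13.

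Among 22 regulators of class I transcription, 10 were lower and none higher in Jak1KO than in WT tumours under aPD1, and 7 were lower and none higher under IgG1, Jak1 included. Stat2 was at -2.15 ± 0.19 under aPD1 and -1.63 ± 0.19 under IgG1, and Irf9, its partner in the type I interferon response, at -1.95 ± 0.17 and -1.51 ± 0.17. Nlrc5, the transactivator of class I genes, averaged 35.5 ± 10.8 CPM in Jak1KO, 63.7 ± 22.5 CPM in B2mKO and 175 ± 44 CPM in WT tumours under aPD1. Under IgG1 it averaged 35.4 ± 7.5 CPM in Jak1KO, 76.2 ± 8.7 CPM in B2mKO and 62.5 ± 28.5 CPM in WT tumours. It fell by 2.30 ± 0.29 (adjusted p = 1.01e-06) in Jak1KO tumours under aPD1 and by 0.82 ± 0.28 (adjusted p = 0.0402) under IgG1. In B2mKO tumours Nlrc5 fell by 1.46 ± 0.28 under aPD1 (adjusted p = 0.000435), as did Irf1 at -0.78 ± 0.14. In that comparison 3 of the 22 regulators were higher and 6 lower, and under IgG1 5 were higher and 1 lower. In WT tumours aPD1 raised 5 of 22, among them Nlrc5 by 1.48 ± 0.28 (adjusted p = 0.00298) without overlap of the groups, Irf1 by 0.71 ± 0.14 and Irf8 by 1.11 ± 0.24.

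Ifng, which encodes interferon gamma, was low everywhere and averaged 0.183 ± 0.193 CPM in B2mKO, 1.24 ± 1.32 CPM in Jak1KO and 3.93 ± 1.94 CPM in WT tumours under aPD1. Under IgG1 it averaged 0.0708 ± 0.0598 CPM in B2mKO, 0.865 ± 0.770 CPM in Jak1KO and 0.262 ± 0.130 CPM in WT tumours. It rose with aPD1 in WT tumours by 3.91 ± 0.67 (adjusted p = 0.00120), with no overlap, and was lower than in WT tumours under aPD1 in B2mKO (adjusted p = 3.30e-05) and in Jak1KO tumours (adjusted p = 0.0189).

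Of 7 other class I chains that could be tested, 3 were lower in Jak1KO than in WT tumours under aPD1 and 2 under IgG1, and none was higher. H2-T10, a close copy of H2-T22 that shares reads with it, led both, at -1.88 ± 0.20 and -1.49 ± 0.20. In B2mKO against WT tumours 1 of 7 was higher under aPD1, the Fc receptor chain Fcgrt at 0.67 ± 0.19, and 1 of 7 under IgG1, H2-T24 at 0.62 ± 0.22. Of 13 class I receptor genes tested, 3 were higher and 1 lower in B2mKO than in WT tumours under IgG1. The 3 were Ly49 receptor genes of NK cells, Klra7 at 2.87 ± 0.57, Klra9 at 3.37 ± 0.76 and Klra8 at 2.53 ± 0.65, all below 2 CPM on average and with near-identical family members. NK cell markers were higher in the same comparison, 3 of 4, as given above, and their part in the receptor values was not tested. Under aPD1, Klra7 and Klra9 were higher, at 1.69 ± 0.45 and 1.73 ± 0.52. In WT tumours aPD1 raised 1 of 13, the leukocyte receptor Pirb at 1.22 ± 0.28.

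Within each knockout genotype, class I levels were compared with the mean log2 CPM of the 10 leukocyte markers over its 10 libraries, 6 relations in all. In B2mKO tumours B2m rose with the markers, with Pearson's r = 0.81 (permutation p = 0.00455, adjusted 0.0136) and Spearman's rho = 0.82 (permutation p = 0.00594, adjusted 0.0356). Without the 2 libraries farthest from the median of the markers r was 0.60. H2-K1 in the same libraries gave r = -0.48 (permutation p = 0.158, adjusted 0.189) and rho = -0.47 (adjusted 0.214), and H2-D1 gave r = -0.33 (permutation adjusted p = 0.358) and rho = -0.33 (adjusted 0.349). In Jak1KO tumours H2-K1 gave r = 0.82 (permutation p = 0.00401, adjusted 0.0136) and rho = 0.66 (adjusted 0.0880), and H2-D1 gave r = 0.76 (permutation p = 0.0111, adjusted 0.0223) and rho = 0.66 (adjusted 0.0880). B2m there gave r = 0.63 (permutation p = 0.0475, adjusted 0.0712) and rho = 0.53 (adjusted 0.186). Without the 2 farthest libraries the Jak1KO values were 0.45, 0.37 and 0.09 for H2-K1, H2-D1 and B2m. Leaving libraries out in this way also narrows the range of the markers. The lower values in both genotypes therefore cannot show whether a relation rested on those libraries, and they were not tested.

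**Figure D5:**
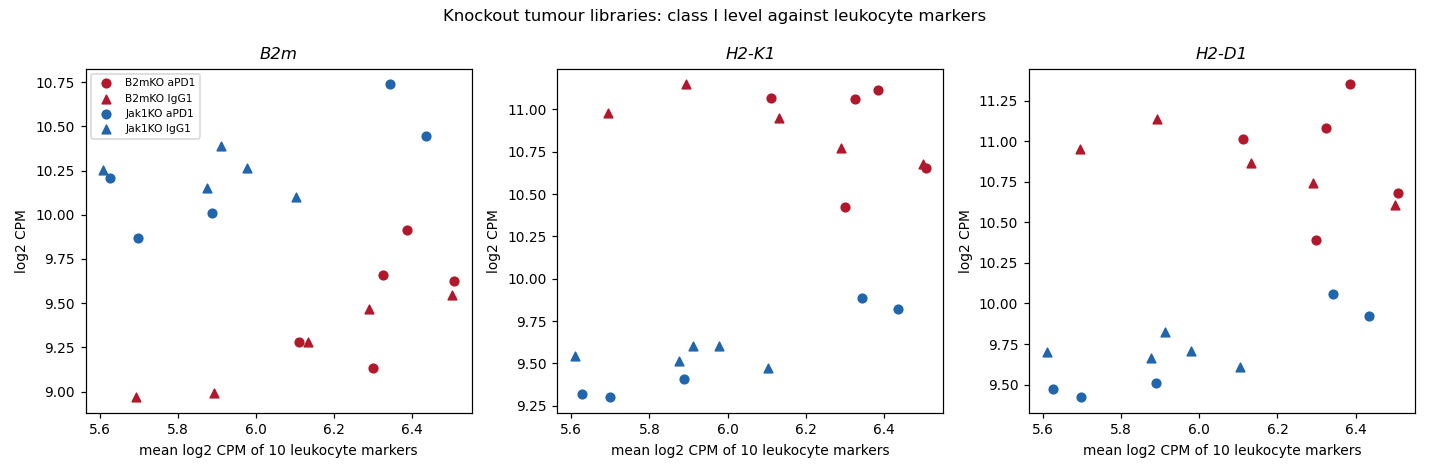
B2m, H2-K1 and H2-D1 (log2 CPM) against the mean log2 CPM of 10 leukocyte markers in the 10 B2mKO and the 10 Jak1KO libraries; each point is 1 library. In B2mKO libraries B2m is higher where the markers are higher (r = 0.81) and H2-K1 is not (r = -0.48).

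Across all 30 libraries the correlation of log2 CPM was 0.99 between H2-K1 and H2-D1 and 0.31 between B2m and H2-K1. Within groups, taken as deviations from the group means, it was 0.97 between H2-K1 and H2-D1 and 0.68 between B2m and H2-K1. The values across all libraries follow the genotype groups, and no p is given for any. The genes most like H2-K1 were the interferon-inducible GTPase genes Irgm2 (r = 0.97), Gbp6 (0.97), Gbp2 (0.97) and Igtp (0.97), and Tap1 (0.97). Those most like B2m were Atcay (0.91), Msx3 (0.91), Afap1l2 (0.91), Epb41l4b (0.91) and Slc35f1 (0.91), ranked among 13235 genes over the same libraries.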

How the data were processed

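The authors deposited raw read counts per gene, made with featureCounts 2.0.0 on the Ensembl release 99 annotation (GRCm38), ignoring strand and leaving out multi-mapping reads, per the file headers. The submitters' processing notes name mm10, STAR 2.5.2a, edgeR 3.24.3, Cufflinks 2.2.1 and FastQC 0.11.2. The 30 per-sample tables equalled the series table. Identifiers were matched to symbols for 55144 genes; the other 327 held 0.047% of counts. All 60 replicate pairs differed by more than counting noise (chi-square over its degrees of freedom, 6.49 to 205.8).

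Here, R 4.3.3 with edgeR 4.0.16 kept 15505 genes (filterByExpr, minimum count 10, minimum total 15), scaled libraries by TMM (factors 0.939 to 1.04) and fitted 6 group means over 30 libraries. Contrasts used the quasi-likelihood F-test with Benjamini-Hochberg adjustment over all genes tested, at a threshold of 0.05. CPM use the TMM-scaled totals, and RPKM divide them by exon length. SE is the absolute log2 fold change over the square root of F. DESeq2 1.42.0 and limma 3.58.1 were alternatives. Ratios and correlations used SciPy 1.17.1, with 100000 resamples for correlations. The steps were tested on simulated data. Shared stretches were counted in GENCODE M21 transcripts. The promoter search held a further motif that is not reported here. The members and gene lists were chosen with earlier results of these data known. Named by rule were the 10 genes in every comparison, up to 4 called genes per pathway list with the smallest p, Jak1, Nlrc5, Ifng and Ptprc, and the 5 genes best correlated with B2m and with H2-K1.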

Additional observations from a re-analysis of the deposited data

Results flagged for a closer look

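Of 66 sets of 5 libraries checked for a sample standing apart from the other 4 by Dixon's criterion, 3 were flagged (4.55%), about the 1 in 20 that chance gives. H2-K1 in WT aPD1 replicate 4 was low, at 1794 CPM, with the other 4 libraries at 2811 to 3022 CPM. H2-Q7 was low in the same library, at 393 CPM, with the others at 555 to 604 CPM. H2-M3 in B2mKO aPD1 replicate 2 was high, at 94.3 CPM, with the others at 37.6 to 51.0 CPM.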

How the results depend on the processing

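The calls in Jak1KO against WT tumours and in B2mKO against Jak1KO tumours kept counts within 1.5 times of those reported under every alternative; smaller counts moved. For aPD1 against IgG1 in WT tumours, 6 of the 10 genes were called with DESeq2 and 0 in a fit of only the groups compared. The count was 8 without WT IgG1 replicate 3 and B2mKO aPD1 replicate 2, an alternative chosen after seeing the data. It was 0 to 6 with 1 library left out. Of all genes, 925 of 15505, 63 of 14358, 977 of 15678 and 229 to 1110 were called in the same order, beside 679 of 15505 in the fit reported. For B2mKO against WT tumours under aPD1 the count was 5 with DESeq2, 5 without those 2 libraries and 3 to 5 with 1 left out. Of all genes, 3424 of 15505, 4704 of 15678 and 2418 to 3321 were called there, beside 3162 of 15505 in the fit reported. Under IgG1 the count was 1 without the filter, 1 in the fit of only the groups compared and 1 to 2 with 1 left out. Of all genes, 2483 of 34952, 1476 of 14364 and 2322 to 3944 were called there, beside 3280 of 15505. With a replicate block the counts were 1 for aPD1 in WT and 1 for B2mKO against WT under IgG1, with 561 and 3099 of all 15505 genes called. No other count moved by over 1.5 times. No label ties the numbers to shared mice. Of 5 same-numbered pairs, 4 correlated over 0.1 for aPD1 against IgG1 in Jak1KO tumours (0.094 to 0.355). The same number did for B2mKO against WT under IgG1 (-0.185 to 0.334), and the other comparisons had 0 to 2 such pairs. The ratio of B2m to H2-D1 alone differed by -0.33 between Jak1KO and WT under aPD1 (exact permutation, adjusted p = 0.0417), and by 0.0523 between aPD1 and IgG1 in WT. With H2-K1 alone the difference between Jak1KO and WT under aPD1 was -0.0746 and did not pass (exact permutation, adjusted p = 0.583). That ratio thus depended on which heavy chain it was set against.

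Among the values kept for this check, signs turned only for values near 0 that had not passed. For aPD1 against IgG1 in the knockout tumours and for the interactions, only B2m, H2-K1 and H2-T23 were kept. H2-K1 for aPD1 against IgG1 was 0.00738 in B2mKO with total-count scaling and -0.00029 in Jak1KO with limma voom. For B2mKO against WT under IgG1, limma voom gave 0.0846 for H2-T23 and 0.0811 for H2-M3, and leaving out the 2 libraries gave 0.0280 for H2-Q6, 0.29 for H2-T23 and 0.34 for H2-M3. With 1 library left out, values under IgG1 ran from -0.0257 to 0.31 for H2-D1, -0.17 to 0.11 for H2-Q6, -0.00459 to 0.47 for H2-T22, -0.19 to 0.28 for H2-T23 and -0.22 to 0.33 for H2-M3, and under aPD1 from -0.23 to 0.0933 for H2-T22, -0.30 to 0.0861 for H2-M3 and -0.19 to 0.10 for Cd1d1. For aPD1 against IgG1 they ran from -0.0802 to 0.0729 for H2-K1 in B2mKO, -0.0844 to 0.14 for B2m and -0.0675 to 0.0827 for H2-K1 in Jak1KO, and the ratio from -0.0736 to 0.0254 in WT and -0.00773 to 0.0688 in Jak1KO. The causes were not tested. The SE of a comparison between groups was 0.34 to 0.35 for H2-T23 and 0.15 for H2-Q4, and lay between these for the other 8 genes.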
